A study of Mus musculus with 14 samples.

Results

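RNA levels in mouse embryonic fibroblasts with knockdown of METTL3 were compared directly with those in fibroblasts with knockdown of ABCF1, in the RNA-seq libraries alone. These are 4 of the 14 libraries of the series, 2 of METTL3 knockdown and 2 of ABCF1 knockdown, and each METTL3 library was set against the ABCF1 library of the same replicate number. The series also holds RNA-seq of 2 libraries with a scrambled hairpin (Scram), Ribo-seq of ribosome-protected fragments from the same 3 groups with 2 replicates each, and Torin1 libraries that were not used here. Of 14214 genes in these files, 8867 could be tested, and 7827 of those were listed in all 4 libraries. All cells were mouse embryonic fibroblasts of strain C57BL/6J, and the 3 groups differ in the labels only by shMETTL3, shABCF1 or Scram. The labels give treatment with DMSO or Torin1 for the whole series, and so do not say for each library whether vehicle was added. The sources used here give neither the hairpin sequences nor the number of clones, nor whether replicates were separate cultures. The p-values therefore measure only the spread between these libraries, which may be technical.

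METTL3 is the catalytic subunit of the methyltransferase that writes N6-methyladenosine (m6A) on mRNA, within the core sequence GGACU among others. Methylated mRNAs are bound by reader proteins that act on decay, splicing and translation, so a change in the mark can alter how much of an mRNA a cell holds. ABCF1 is an ATP-binding protein of the ABCF family that binds the initiation factor eIF2 and associates with ribosomes. Fibroblasts make and remodel collagen-rich matrix, and the levels of mRNAs for matrix, cytoskeleton, ribosomes and metabolism dominate their RNA. The series title concerns translation that does not depend on the cap-binding complex eIF4F, and setting one knockdown against the other shows where RNA levels differ between the 2 perturbations.

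Both targets were lowest in their own knockdown. Levels are given as scaled RPKM, which is reads per kilobase of transcript relative to library size as deposited, without Lars2 and Tmem38b and brought to a common median. Differences are METTL3 minus ABCF1 on the log2(RPKM + 1) scale, which understates the change of genes at low levels. Mettl3 (ENSMUSG00000022160, GRCm38 chromosome 14, 52294841 to 52305128, minus strand) stood at 2.84 and 4.34 in METTL3 knockdown, 9.58 and 9.70 in ABCF1 knockdown and 9.69 and 5.55 in Scram, each pair being replicates 1 and 2. METTL3 libraries were below all others, although replicate 2 rests on 9 reads. The difference was -1.23 (SE 0.34, limma adjusted p = 0.371), with -1.46 and -1.003 in replicates 1 and 2. Abcf1 (ENSMUSG00000038762, chromosome 17, 35956819 to 35969761, minus strand) stood at 36.3 and 52.5 in METTL3 knockdown, 13.98 and 27.3 in ABCF1 knockdown and 47.1 and 56.4 in Scram. ABCF1 libraries were below all others, and the difference was 1.12 (SE 0.22, adjusted p = 0.348). Neither target passed the test over all genes.

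Over all genes, limma called 0 of 8867 genes higher (0%) and 0 lower (0%) in METTL3 than in ABCF1 knockdown at an adjusted p under 0.05, and the lowest adjusted p was 0.325. At an unadjusted p under 0.05 there were 1070 genes (12.1%), of which 591 were higher (6.67%) and 479 lower (5.4%). Higher in both replicates were 2920 genes (32.9%), and lower in both were 2470 (27.9%). Differences of at least 1 on the log2 scale in both replicates were found for 66 genes on the higher side (0.744%) and 113 on the lower side (1.27%). The median difference of all tested genes was 0.03, with 0.01 in replicate 1 and 0.05 in replicate 2. Without ABCF1 replicate 1 the test called 171 genes, 75 higher and 96 lower, in a fit where the spread of the other groups stands for the lone ABCF1 library, which is then replicate 2. Since no gene passed with all libraries, differences of single genes below are values of these libraries.

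Libraries of the same replicate number were more alike than libraries of the same group, with a Pearson r across genes of 0.85 to 0.97 within a replicate and 0.60 to 0.69 between replicates. The depth that the RPKM values imply was 1342742 to 3802662 reads, but Lars2 and Tmem38b held 43.6% to 52.2% of the reads of replicate 2. This left 652617 to 697478 reads in the METTL3 and ABCF1 libraries of replicate 2, against 1371970 to 1597320 in those of replicate 1. The SD of the differences over genes was 0.559 in replicate 1 and 0.902 in replicate 2. It was 0.638 and 1.46 in the quintile of genes with fewest reads over the 4 libraries, and 0.478 and 0.581 in that with most. The cause of the wider spread in replicate 2 was not tested. Across genes the differences of the replicates correlated with a Pearson r of 0.25 (8867 genes, which share libraries and are not independent). In the quintile of genes with most reads, 504 to 173653 over the 4 libraries, r was 0.36. ABCF1 replicate 2 stands apart: 111 genes (1.25%) were at least 4-fold higher there than in every other RNA-seq library, at 20 reads or more. The corresponding count was 0 to 5 genes in each of the other 5 libraries. The 111 genes had a median difference of -3.17 in replicate 2, where their selection sets the sign, and -0.10 in replicate 1. In Ribo-seq the 78 of them that could be tested had medians of 0.08 and 0.13. Differences that rest on ABCF1 replicate 2 are named as such below, with the value without it. A value without 1 library takes the shift between replicates from the remaining groups, Scram included. It is therefore not the difference of the other replicate alone.

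**Figure D1:**
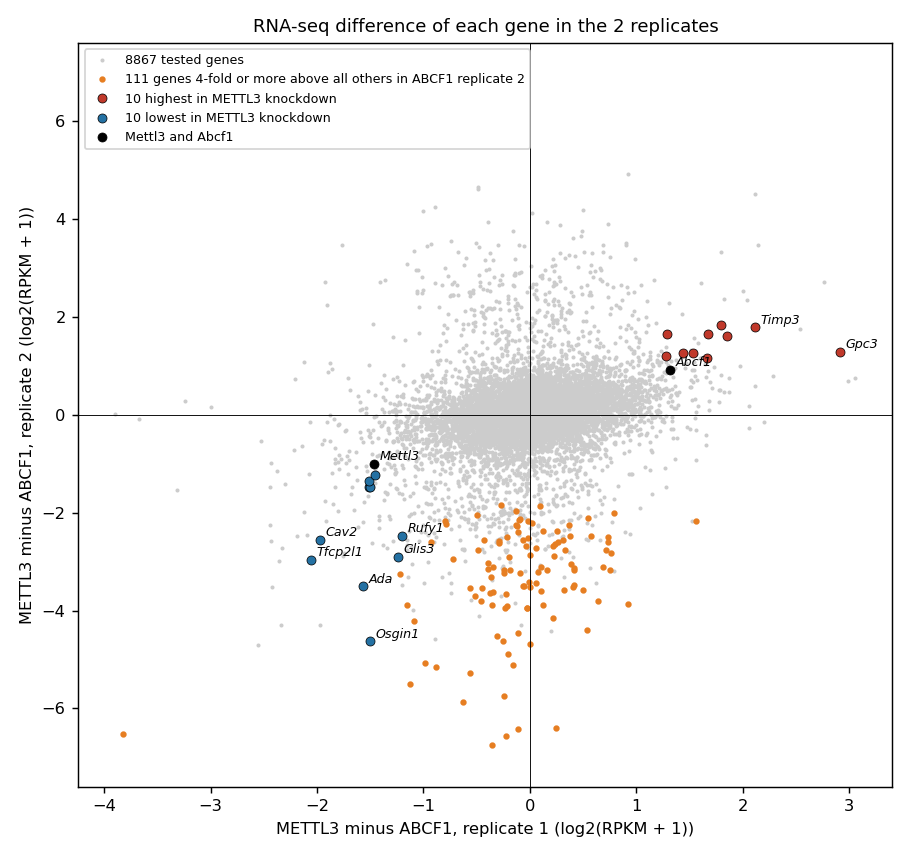
METTL3 minus ABCF1 difference of each of 8867 genes in RNA-seq, replicate 1 on the x axis and replicate 2 on the y axis, on the log2(RPKM + 1) scale. The 111 genes that stand out in ABCF1 replicate 2 (orange) lie below 0 on the y axis because of how they were selected, and mostly near 0 on the x axis. Of the 10 lowest genes (blue), 4 belong to them (Ada, Osgin1, Rufy1 and Glis3).

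The genes with the largest difference in both replicates were drawn from those listed in all 4 libraries at a mean of at least 10 scaled RPKM, 10 on each side, and their difference in RNA-seq is a description because it chose them. On the higher side, Timp3, an inhibitor of metalloproteinases that is bound to the matrix, was at 480.5 and 228.3 in METTL3 knockdown, 110.5 and 65.6 in ABCF1 knockdown and 246.3 and 174.5 in Scram. Both METTL3 libraries exceeded both ABCF1 libraries, and Scram lay between them in each replicate, with a difference of 1.95 (SE 0.20). Kcnab1, a beta subunit of voltage-gated potassium channels, had 65.2 and 40.9 in METTL3 knockdown, 18.1 and 10.8 in ABCF1 knockdown and 39.6 and 19.0 in Scram. Its differences of 1.79 and 1.83 in replicates 1 and 2 were close to each other. Gpc3, a cell surface proteoglycan of the glypican family, had 39.5 and 11.02 in METTL3 knockdown, 4.38 and 3.94 in ABCF1 knockdown and 41.4 and 6.06 in Scram. Its replicates differed most among the 10, with 2.91 and 1.28, and in replicate 1 METTL3 knockdown was close to Scram. Mycn, a transcription factor of the MYC family, had 18.3 and 15.0 in METTL3 knockdown, 5.05 and 4.09 in ABCF1 knockdown and 5.84 and 7.601 in Scram. Here METTL3 knockdown stood above both other groups in each replicate.

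Lbh, a transcriptional cofactor, had 86.8 and 81.3 in METTL3 knockdown, 31.3 and 33.1 in ABCF1 knockdown and 66.6 and 76.7 in Scram. The 2 libraries of each group lay close together, and ABCF1 knockdown was the lowest group in both replicates (difference 1.36, SE 0.18). Upk1b, a tetraspanin, had 403.9 and 387.5 in METTL3 knockdown, 138.6 and 161.0 in ABCF1 knockdown and 184.2 and 298.1 in Scram. Edn1, which encodes the peptide endothelin 1, had 37.8 and 15.8 in METTL3 knockdown, 11.3 and 6.52 in ABCF1 knockdown and 31.2 and 11.3 in Scram. For both genes the METTL3 and ABCF1 libraries did not overlap. Krt14, an epithelial keratin, had 12.96 and 31.6 in METTL3 knockdown, 2.86 and 9.64 in ABCF1 knockdown and 6.56 and 22.8 in Scram. Of the 7 epithelial markers, 4 including Epcam and Krt5 were at 0 in all 6 libraries. The 7 summed to 13.9 and 31.6 in METTL3 knockdown, 4.35 and 9.64 in ABCF1 knockdown and 7.23 and 24.4 in Scram, most of it Krt14, and their part in the Krt14 difference was not tested. In bulk samples fewer cells of a type and less RNA per cell cannot be told apart. Tubb4a, a beta-tubulin, and Wrnip1, an ATPase of DNA repair, had differences of 1.47 (SE 0.22) and 1.24 (SE 0.20). In 9 of the 10 genes Scram lay between METTL3 and ABCF1 knockdown in both replicates. Choosing genes by a wide gap between the knockdowns favours this position, and its share over all tested genes was not computed. The next genes by the same order were Prss23 and Dusp3, with smaller differences of 1.16 and 1.16 against 1.16 for the last one included.

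On the lower side, 6 of the 10 genes are not among the 111 that stand out in ABCF1 replicate 2. Cav2, caveolin 2 of the plasma membrane caveolae, was at 6.83 and 3.93 in METTL3 knockdown, 29.8 and 28.0 in ABCF1 knockdown and 10.6 and 10.6 in Scram. ABCF1 knockdown stood above both other groups in each replicate, with a difference of -2.26 (SE 0.25). Tfcp2l1, a transcription factor of the grainyhead family, had 1.86 and 5.06 in METTL3 knockdown, 10.9 and 46.0 in ABCF1 knockdown and 4.62 and 19.6 in Scram. All 3 groups were higher in replicate 2, and the order of the groups was the same in both replicates (difference -2.51, SE 0.29). Itga6, an integrin chain of laminin receptors, had 6.68 and 3.05 in METTL3 knockdown, 20.8 and 10.2 in ABCF1 knockdown and 6.44 and 9.54 in Scram. Serpinf1, the secreted serpin PEDF, had 9.67 and 6.40 in METTL3 knockdown, 29.4 and 19.7 in ABCF1 knockdown and 28.0 and 11.4 in Scram. For Serpinf1 the METTL3 libraries lay below both other groups in each replicate, with a difference of -1.50 (SE 0.25). Ankrd1, a nuclear cofactor known as a YAP target, had 31.2 and 21.02 in METTL3 knockdown, 90.7 and 55.0 in ABCF1 knockdown and 56.8 and 146.0 in Scram. Ndrg1, a gene induced by hypoxia, had 10.3 and 13.5 in METTL3 knockdown, 29.9 and 33.3 in ABCF1 knockdown and 19.0 and 43.6 in Scram. METTL3 knockdown was the lowest group in each replicate for both, while the order of ABCF1 knockdown and Scram changed between replicates.

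The remaining 4 are among the 111 genes that stand out in ABCF1 replicate 2, although their smaller difference, by which they were ranked, is that of replicate 1. Osgin1, a gene of the oxidative stress response, had 2.39 and 3.90 in METTL3 knockdown, 8.603 and 120.3 in ABCF1 knockdown and 6.00 and 16.2 in Scram. Ada, adenosine deaminase, had 0.851 and 6.36 in METTL3 knockdown, 4.47 and 82.8 in ABCF1 knockdown and 1.06 and 1.48 in Scram. Its METTL3 and ABCF1 libraries overlapped, and METTL3 replicate 1 held 3 reads. Glis3, a zinc finger factor, and Rufy1, an endosomal protein, were at 34.7 and 32.9 in ABCF1 replicate 2, and at most 8.61 and 6.62 in any other library. Without ABCF1 replicate 2 the differences were -1.69 for Osgin1, -1.13 for Ada, -1.14 for Glis3 and -0.92 for Rufy1, against -3.07, -2.54, -2.07 and -1.84 with it. In 5 of the 10 lowest genes Scram lay between the knockdowns in both replicates, a position that the choice of genes favours here too. The next genes in order were Acer3 and Ywhaz, with smaller differences of -1.13 and -1.11 against -1.20 for the last one included. Over both sets of 10 the limma adjusted p ranged over 0.325 to 0.388.

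**Figure D2:**
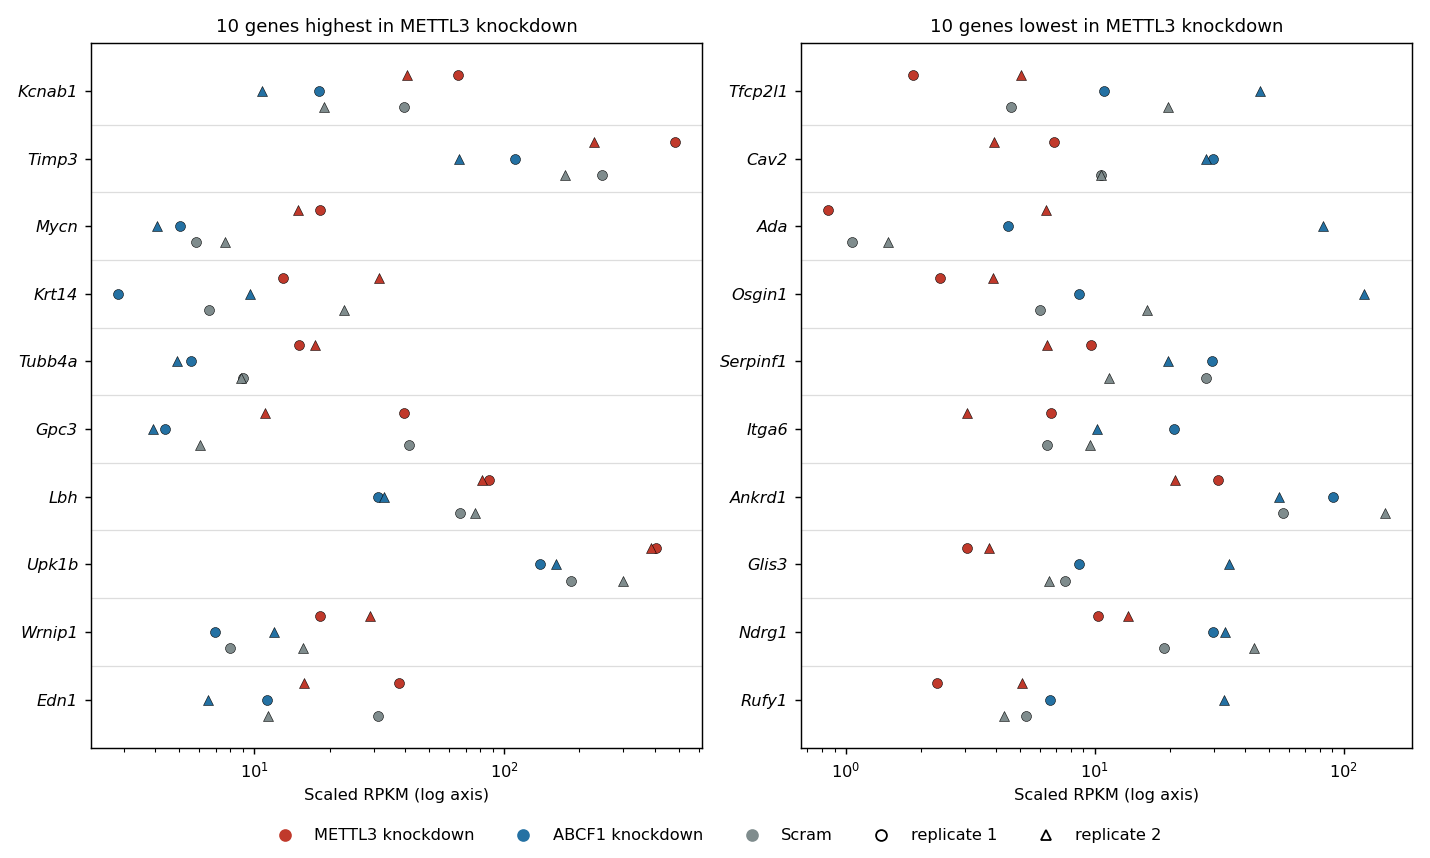
Scaled RPKM on a log axis of the 10 genes highest (left) and 10 lowest (right) in METTL3 knockdown against ABCF1 knockdown, in each of 6 libraries (circles replicate 1, triangles replicate 2; METTL3 in red above ABCF1 in blue and Scram in grey). Timp3 spans 65.6 to 480.5, and the ABCF1 replicate 2 triangles of Ada and Osgin1 lie far right of all other points of the same gene.

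Several of these genes share exonic bases with a neighbour, and no source used here states whether reads were counted by strand. Exons of Timp3 overlap those of Syn3 on the other strand over 1733 bases, those of Wrnip1 overlap D930007J09Rik over 393, those of Mettl3 overlap Tox4 over 366, and those of Ndrg1 overlap Gm17035 over 419. Smaller antisense overlaps touch Kcnab1 (118 bases) and Edn1 (35 bases), and Tfcp2l1 overlaps the small RNA gene Gm23497 on its own strand over 130 bases. Unless reads were counted by strand, those of opposite-strand neighbours cannot be told apart in these stretches. Tubb4a and Krt14 belong to families of similar sequence, where reads could be split between copies.

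Because METTL3 methylates GGACU, the transcript kept for each named gene was searched for GGACT, its DNA spelling, on the transcript strand. The windows below, from GENCODE M21, show for genes of each side the match nearest to the end of the coding sequence, with the motif in capitals and 10 bases on either side, since m6A is known to lie often near stop codons.
Kcnab1: acagcaaaaaGGACTatagatcata
Timp3: gatgtacacaGGACTgtgcaacttt
Mycn: gaacacgctcGGACTtgctaaacgt
Gpc3: ggatgaagaaGGACTtgaaagtgga
Tfcp2l1: cctgaagtgtGGACTctgagcagca
Ndrg1: cagtcaccctGGACTggtggcctct
Serpinf1: gatacggcttGGACTctgatctcaa
The windows of Kcnab1, Mycn and Tfcp2l1 lie in coding sequence 15, 10 and 8 bases before its end (GRCm38 chromosomes 3, 12 and 1, listed as -15, -10 and -8), and that of Ndrg1 (chromosome 15) lies 24 bases into the 3' UTR. Those of Timp3, Gpc3 and Serpinf1 are coding and farther upstream. Cav2 holds 0 matches in 2733 bases, while Tfcp2l1 holds 16 in 9269 bases and Kcnab1 8 in 3245. Such matches are common, since 92.3% of the tested transcripts (8180 of 8867) hold at least 1, at a median of 1.04 per kilobase. A match is not a methylated site, and methylation was not measured.

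Genes split into quintiles by GGACT matches per kilobase had median differences of 0.04, 0.04, 0.01, 0.02 and 0.06 from fewest to most matches. By level, medians were -0.09, -0.01, 0.02, 0.06 and 0.14 from the lowest to the highest quintile. By transcript length they were 0.12 in the shortest and -0.05 in the longest quintile, and by GC content -0.02 in the lowest and 0.06 in the highest. The steps by level had the same direction in both replicates, with -0.11 and -0.11 in the lowest quintile and 0.15 and 0.13 in the highest quintile for replicates 1 and 2. Gene groups at high levels, such as ribosomal protein genes, are therefore read beside the 0.14 of the highest quintile.

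Promoters are shown for Timp3 and Cav2, a gene of each side whose METTL3 and ABCF1 libraries lay far apart in both replicates. They are RefSeq windows of GRCm38.p6 from 250 bases before to 50 after the start, in which capitals mark GGGCGG (a GC box), CCAAT and TGANTCA (the AP-1 element) on either strand. The Timp3 window is chr10:86300162-86300461 and the Cav2 window chr6:17280935-17281234, both on the plus strand.
Timp3: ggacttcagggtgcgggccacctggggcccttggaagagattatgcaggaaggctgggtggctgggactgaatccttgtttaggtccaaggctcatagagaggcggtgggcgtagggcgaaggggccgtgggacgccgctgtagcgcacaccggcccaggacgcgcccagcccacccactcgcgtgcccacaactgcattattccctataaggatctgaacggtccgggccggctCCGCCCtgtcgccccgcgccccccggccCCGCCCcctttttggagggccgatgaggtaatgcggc
Cav2: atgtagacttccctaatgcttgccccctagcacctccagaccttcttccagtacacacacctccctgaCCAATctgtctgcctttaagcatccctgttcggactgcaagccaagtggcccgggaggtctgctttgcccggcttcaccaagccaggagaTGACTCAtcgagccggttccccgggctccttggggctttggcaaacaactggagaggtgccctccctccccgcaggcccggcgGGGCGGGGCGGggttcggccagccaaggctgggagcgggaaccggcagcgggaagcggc
The Timp3 window holds GGGCGG 2 times on the minus strand, and the Cav2 window holds CCAAT and the AP-1 element 1 time each and GGGCGG 2 times in overlapping positions. Over all 27025 promoter windows of that length, the GC box occurs in 35.9%, the CCAAT box in 37.9% and the AP-1 element in 7.93%. No binding was measured here, and a match is a description of the letters alone. Promoters were found for 19 of the 22 named genes.

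Ribo-seq of the same groups gives a separate set of libraries for the 20 genes chosen from RNA-seq, although no source used here states whether both assays used the same cells. All 10 genes on the higher side were also higher in METTL3 knockdown in both Ribo-seq replicates, against 33.2% of all 8986 genes tested there, and 8 of them had an unadjusted p under 0.05 (5.95% of all genes on the higher side). On the lower side 9 of 10 were lower in both Ribo-seq replicates, against 29.6% of all genes, and 7 had an unadjusted p under 0.05 (5.89% of all genes on the lower side). None of the 20 passed the Ribo-seq test over all genes with limma, where the lowest adjusted p were 0.0514 on the higher and 0.0823 on the lower side. Kcnab1 had a Ribo-seq difference of 2.01 (SE 0.23), Tubb4a 2.13 (SE 0.35) and Lbh 1.40 (SE 0.28). Upk1b, at 1.40 in RNA-seq, had 0.39 (SE 0.21) in Ribo-seq. Serpinf1 and Tfcp2l1 had -1.93 (SE 0.27) and -1.98 (SE 0.35). Among the 10 lowest, the 4 genes that stand out in ABCF1 replicate 2 had Ribo-seq differences of -0.58 for Osgin1, -0.56 for Ada, -1.02 for Glis3 and -0.11 for Rufy1. Mettl3 and Abcf1 themselves had Ribo-seq differences of -1.78 (SE 0.36) and 1.23 (SE 0.23).

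**Figure D3:**
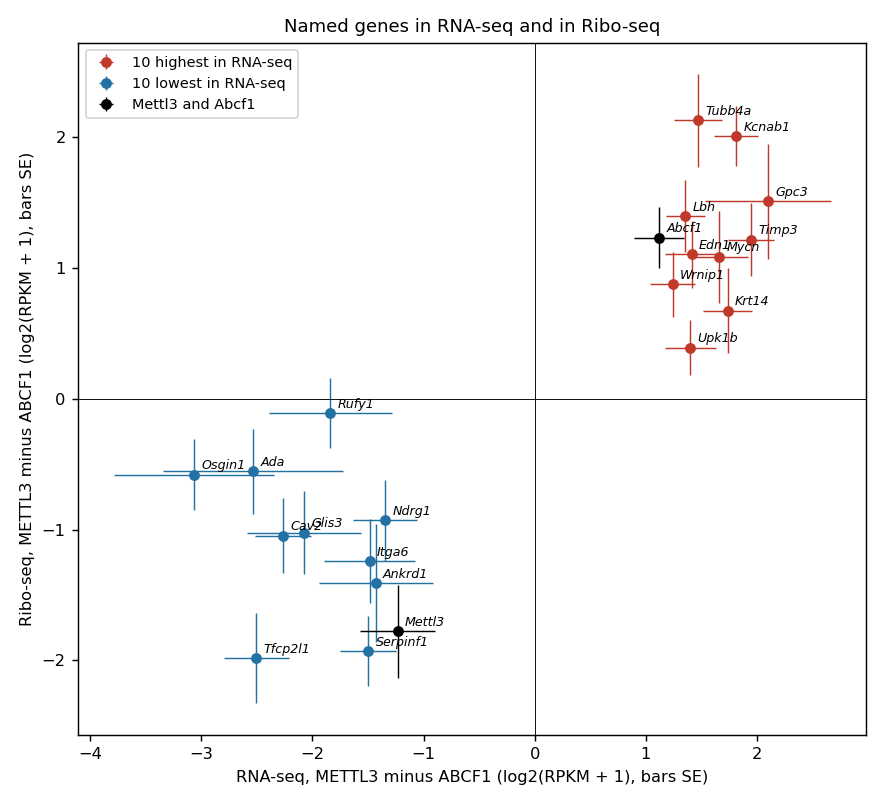
METTL3 minus ABCF1 difference on the log2(RPKM + 1) scale in RNA-seq (x axis) and Ribo-seq (y axis) for the 10 highest, 10 lowest and 2 targeted genes, with bars of 1 SE. All 10 highest genes lie above 0 in Ribo-seq, between 0.39 and 2.13, and the 10 lowest lie between -1.98 and -0.11.

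In all, 5 genes passed the Ribo-seq test, of which 2 were higher (0.0223%) and 3 lower (0.0334%) in METTL3 than in ABCF1 knockdown, and those named here are named because of that test. Angptl7 and Mmp23 were higher, and Mfap5 and Cbr2 were among the lower ones. This count was 0 without the replicate block and reached 169 when Scram replicate 2 was left out. In RNA-seq Angptl7, a secreted angiopoietin-like protein, had 10.9 and 22.2 in METTL3 knockdown, 0.750 and 2.53 in ABCF1 knockdown and 4.34 and 15.9 in Scram. Its RNA-seq difference was 2.74 (SE 0.28, limma adjusted p = 0.325), the same order of groups in each replicate, at a mean level just under the minimum of the ranking above. Mmp23, a metalloproteinase, had 4.67 and 4.09 in METTL3 knockdown, 0.376 and 0 in ABCF1 knockdown and 2.80 and 1.09 in Scram, from at most 14 reads in the knockdown libraries. Mfap5 and Cbr2 did not reach the level needed for a test in RNA-seq.

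Of 39 gene lists, 20 with a median beyond 0.2 in either direction are described, and in each of the 39 the count of members past the RNA-seq test was 0. A member unlisted in 1 library of a replicate enters there at 0, which fixes its direction in that replicate. Most members named below are among the 3 of lowest p in their list, so their order of groups is a description. Of 38 genes of ribosome biogenesis, 36 were tested, of which 27 were higher and 0 lower in both replicates, where 32.9% and 27.9% of the tested genes were. Their median difference was 0.42, with 0.68 in replicate 1 and 0.15 in replicate 2, and the quintile of genes by level that holds the list's median level stood at 0.05 and 0.08. The list's median was 0.20 without ABCF1 replicate 1 and 0.74 without ABCF1 replicate 2. Nop10, a subunit of the H/ACA particles that guide pseudouridylation, had 50.9 and 52.8 in METTL3 knockdown, 32.1 and 19.7 in ABCF1 knockdown and 39.4 and 26.8 in Scram. Rrp12 and Rcl1, which act in processing of the ribosomal RNA precursor, had differences of 0.87 (SE 0.23) and 0.71 (SE 0.20). Set against Scram of the same replicate, the list's medians were -0.05 and 0.06 in METTL3 knockdown and -0.82 and -0.19 in ABCF1 knockdown, 2 comparisons that share the Scram libraries.

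Large ribosomal subunit proteins had a median of 0.31 (42 of 48 tested, 27 higher and 2 lower in both replicates), with 0.46 and 0.18 in replicates 1 and 2. Small subunit proteins had 0.28 (31 of 34, 17 higher and 1 lower), with 0.48 and 0.12. Without ABCF1 replicate 1 these medians were 0.16 and 0.04 for the large and small subunit, without ABCF1 replicate 2 they were 0.57 and 0.54, and with quantile normalization 0.18 and 0.13. Rpl19 stood at 262.5 and 949.2 in METTL3 knockdown, 167.2 and 635.1 in ABCF1 knockdown and 235.6 and 801.9 in Scram, and METTL3 knockdown was highest in each replicate (difference 0.61, SE 0.17). Rps16 was at 192.9 and 620.5 in METTL3 knockdown, 110.3 and 458.4 in ABCF1 knockdown and 124.8 and 517.1 in Scram. Many ribosomal protein genes have near-identical copies, so the count of a single one is uncertain. Their Ribo-seq medians were 0.03 and 0.21 for the large and small subunit. In replicates 1 and 2 they were 0.15 and -0.03 for the large and 0.23 and -0.01 for the small subunit. Initiation factors had 0.28 (35 of 36, 24 higher and 5 lower), with 0.41 and 0.18, and Eif5a, the hypusinated factor, had 439.9 and 526.7 in METTL3 knockdown, 187.9 and 417.0 in ABCF1 knockdown and 357.6 and 512.1 in Scram. The 4 ABCF and ABCE ATPases, the family of the target, were all higher in both replicates, where 32.9% of tested genes were. Of these, Abcf1 is the gene knocked down, and Abce1 had differences of only 0.25 and 0.05 in replicates 1 and 2. Apart from Abcf1 itself, Abcf3 had 14.9 and 14.5 in METTL3 knockdown, 10.1 and 8.48 in ABCF1 knockdown and 17.7 and 13.1 in Scram, and Abcf2 had a difference of 0.41 (SE 0.17). In Ribo-seq Abcf3 and Abcf2 had differences of -0.22 (SE 0.25) and -0.20 (SE 0.26), and Abcf3 had no common direction in the 2 Ribo-seq replicates.

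All 10 amino acid transporters tested, of 14 on the list, were higher in METTL3 than in ABCF1 knockdown in both replicates, where 32.9% of tested genes were. Of the 10, 9 were listed in all 4 libraries, and the direction of Slc43a1 in replicate 2 follows from its absence in ABCF1 replicate 2. The list had a median of 0.37 and replicate medians of 0.45 and 0.41. Slc7a5, the large neutral amino acid transporter, had 46.5 and 51.9 in METTL3 knockdown, 21.9 and 37.2 in ABCF1 knockdown and 46.9 and 59.5 in Scram. ABCF1 knockdown was lowest in each replicate, and METTL3 knockdown was a little below Scram. Slc1a5, a glutamine transporter, had a difference of 0.54 (SE 0.20). Slc43a1 had 7.54 and 1.92 in METTL3 knockdown, 3.18 and 0 in ABCF1 knockdown and 10.7 and 3.69 in Scram, from 5 reads or fewer in replicate 2 of the knockdowns. Aminoacyl-tRNA synthetases, which charge tRNAs, had a median of 0.29 (19 of 20 tested, 12 higher and 2 lower), with 0.44 and 0.17, and Mars and Iars had 0.71 (SE 0.20) and 0.61 (SE 0.21). Their median was 0.18 without ABCF1 replicate 1, 0.45 without ABCF1 replicate 2 and 0.19 with a pseudocount of 4. The list around ATF4, a transcription factor induced when eIF2 is phosphorylated, had 0.27 (22 of 27, 12 higher and 3 lower), with 0.32 and 0.20, and 0.17 without METTL3 replicate 1 or without ABCF1 replicate 2. Among them Trib3, a pseudokinase, had 8.74 and 15.9 in METTL3 knockdown, 5.06 and 5.39 in ABCF1 knockdown and 8.58 and 9.87 in Scram, and Shmt2, a mitochondrial serine hydroxymethyltransferase, had 0.66 (SE 0.18). Nupr1, a stress-induced chromatin protein, lay on the other side, with 1.73 and 0 in METTL3 knockdown, 13.7 and 10.5 in ABCF1 knockdown and 2.15 and 7.91 in Scram. In Ribo-seq the medians of these 3 lists were 0.09 for transporters, -0.04 for synthetases and -0.24 for ATF4 genes. In replicates 1 and 2 the Ribo-seq medians were -0.02 and 0.06 for synthetases and -0.35 and 0.08 for ATF4 genes. For these 2 lists the RNA-seq direction was thus not seen over both replicates or in replicate 1, while replicate 2 had it. Transporters had Ribo-seq medians of -0.03 and 0.09 in replicates 1 and 2. Of 12 tested there, 4 were higher and 3 lower in both, where 33.2% and 29.6% of all genes were. In Ribo-seq Slc7a5 had -0.45 (SE 0.23), Slc1a5 0.22 (SE 0.26) and Slc43a1 0.56 (SE 0.32). The difference between assays was not tested.

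DNA replication genes had a median of 0.34 (38 of 41 tested, 26 higher and 3 lower in both replicates), with 0.44 and 0.23 in replicates 1 and 2 and 0.18 without ABCF1 replicate 1. Tk1, thymidine kinase of the S phase, had 89.1 and 99.7 in METTL3 knockdown, 27.7 and 57.6 in ABCF1 knockdown and 74.6 and 64.0 in Scram. Gins1, a subunit of the replicative helicase, had 16.7 and 17.97 in METTL3 knockdown, 8.43 and 8.03 in ABCF1 knockdown and 11.5 and 12.9 in Scram. For both genes, chosen by their low p, METTL3 knockdown was the highest and ABCF1 knockdown the lowest group in each replicate. Rrm2, 1 of the 3 lower ones, is named after its values were seen. It had 40.8 and 61.9 in METTL3 knockdown, 54.6 and 211.0 in ABCF1 knockdown and 39.8 and 87.9 in Scram. Replication-dependent histones had a median of 0.41 (46 of 58 tested, 26 higher and 4 lower), with 0.24 and 0.40 and 0.18 without ABCF1 replicate 2, and Hist1h4i and Hist1h3a had 0.79 (SE 0.19) and 0.84 (SE 0.21). Among the 4 lower ones, Hist1h2ai had 2.44 and 0 in METTL3 knockdown, 19.2 and 25.0 in ABCF1 knockdown and 4.54 and 31.8 in Scram, from at most 14 reads in the knockdown libraries. Histone genes are near-identical copies of each other, so reads may be split between them. In Ribo-seq the replication and histone medians were 0.04 and -0.12. Proteasome subunits had a median of 0.22 in RNA-seq (35 of 36, 21 higher and 4 lower), with 0.24 and 0.22 and 0.12 with quantile normalization, led by Psmb3 at 0.85 (SE 0.17).

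Metalloproteinases and the plasminogen system had a median of 0.81, with 9 of 15 members tested (5 on the higher side in both replicates and 2 on the lower), and 0.63 and 0.61 in replicates 1 and 2. In Ribo-seq the median was 0.38, beyond both of its replicate medians of 0.20 and 0.08. Of 12 members tested there, 5 were higher and 3 lower in both replicates. The RNA-seq median was 0.26 without METTL3 replicate 1, 0.34 without ABCF1 replicate 2, 0.46 at a mean RPKM of at least 5 and 0.47 over genes listed in all 4 libraries. Mmp2, which cleaves denatured collagen, was at 85.2 and 86.2 in METTL3 knockdown, 37.6 and 42.8 in ABCF1 knockdown and 72.5 and 60.3 in Scram. Adamts5, an aggrecanase, was at 53.8 and 35.7 in METTL3 knockdown, 19.0 and 18.1 in ABCF1 knockdown and 37.4 and 28.2 in Scram. The METTL3 libraries lay above and the ABCF1 libraries below Scram of the same replicate for both genes. Matricellular proteins and protease inhibitors had a median of 0.33 (21 of 25 tested, 11 higher and 3 lower), with 0.21 and 0.31. In Ribo-seq it was 0.26, with 0.18 and 0.07 in replicates 1 and 2. The RNA-seq median of this list was 0.16 without ABCF1 replicate 2 and 0.21 with a pseudocount of 4. Besides Timp3, the basement membrane protein Nid2 had 93.5 and 88.2 in METTL3 knockdown, 29.3 and 42.5 in ABCF1 knockdown and 55.1 and 64.0 in Scram. Fibronectin (Fn1) had 1156 and 674.6 in METTL3 knockdown, 532.4 and 364.8 in ABCF1 knockdown and 1501 and 636.5 in Scram, a difference of 1.0 (SE 0.23), which in Ribo-seq was 1.56 (SE 0.23). Plau, the urokinase of the plasminogen system, is named after its values were seen, as the member lowest in METTL3 knockdown. It had 3.27 and 2.92 in METTL3 knockdown, 14.5 and 7.92 in ABCF1 knockdown and 8.37 and 15.3 in Scram. Collagen chains had a median of -0.01 (15 of 19 tested, 5 higher and 5 lower). Actins and tubulins had 0.23 (11 of 11 tested, 9 higher and 0 lower), which was 0.12 with quantile normalization, 0.14 without METTL3 replicate 1, 0.35 without METTL3 replicate 2 and 0.39 without ABCF1 replicate 2. Actb, with 2528 and 2106 in METTL3 knockdown, 1538 and 1903 in ABCF1 knockdown and 2089 and 2282 in Scram, turned from 0.43 to -0.11 with quantile normalization.

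Sterol synthesis genes and the LDL receptor had a median of 0.30 (21 of 25 tested, 12 higher and 2 lower in both replicates), with 0.30 and 0.24 in replicates 1 and 2. Lss, lanosterol synthase, had 12.7 and 12.97 in METTL3 knockdown, 6.70 and 8.65 in ABCF1 knockdown and 12.2 and 18.3 in Scram. The list's median was -0.05 without METTL3 replicate 1 and 0.05 without ABCF1 replicate 2, against 0.58 without METTL3 replicate 2 and 0.54 without ABCF1 replicate 1. These fits take the shift between replicates partly from Scram. Against Scram of the same replicate, the list's medians were 0.07 and -0.87 in METTL3 knockdown and -0.11 and -1.03 in ABCF1 knockdown. Chaperones of the heat shock and CCT lists had medians of 0.25 (18 of 21 tested, 10 higher and 2 lower) and 0.23 (7 of 8, 4 higher and 0 lower). Their replicate medians were 0.10 and 0.09 for the heat shock list and 0.47 and 0.06 for CCT, and the CCT median was -0.01 without ABCF1 replicate 1, 0.59 without ABCF1 replicate 2 and 0.10 with quantile normalization. The heat shock median was 0.02 without ABCF1 replicate 2, 0.10 without ABCF1 replicate 1, 0.14 without METTL3 replicate 1 and 0.13 with quantile normalization. In Ribo-seq the 3 medians were 0.02, -0.03 and 0.09.

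Glycolysis and hypoxia genes lay on the lower side, with a median of -0.45 with 18 of 25 members tested (2 on the higher side in both replicates and 11 on the lower), and -0.66 and -0.23 in replicates 1 and 2. In Ribo-seq it was -0.31, with -0.36 and -0.06 in replicates 1 and 2. The RNA-seq median was -0.19 without ABCF1 replicate 1 and -0.27 with a pseudocount of 4. Of the 18 tested, 15 were listed in all 4 libraries. Ldha and Vegfa count among the 11, although in replicate 1 they rest on values near the floor. There they were at 0 in METTL3 knockdown and at 0.610 and 0.546 in ABCF1 knockdown. Next to Ndrg1, described above, Pfkl, the liver type of phosphofructokinase, had 5.26 and 9.42 in METTL3 knockdown, 14.7 and 11.997 in ABCF1 knockdown and 7.05 and 7.96 in Scram. Its ABCF1 libraries were the highest in each replicate (difference -0.82, SE 0.30). Pgam1, a phosphoglycerate mutase, lay on the other side with 0.48 (SE 0.18). Lysosome and autophagy genes had a median of -0.27 (26 of 30 tested, 2 higher and 13 lower), but -0.38 and -0.02 in replicates 1 and 2, 0.02 without ABCF1 replicate 1 and -0.52 without ABCF1 replicate 2. Neu1, a sialidase, had -0.59 (SE 0.22). Tpp1, a lysosomal peptidase, had 18.5 and 16.2 in METTL3 knockdown, 24.5 and 138.7 in ABCF1 knockdown and 21.3 and 28.2 in Scram, so its difference of -1.71 was -0.53 without ABCF1 replicate 2. Hmga2, a chromatin architecture factor, was at 11.7 and 5.38 in METTL3 knockdown, 23.2 and 15.5 in ABCF1 knockdown and 28.7 and 14.4 in Scram. METTL3 knockdown was the lowest group in both replicates, with a difference of -1.15 (SE 0.21), -0.75 with transcripts summed, and -1.79 (SE 0.20) in Ribo-seq.

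**Figure D4:**
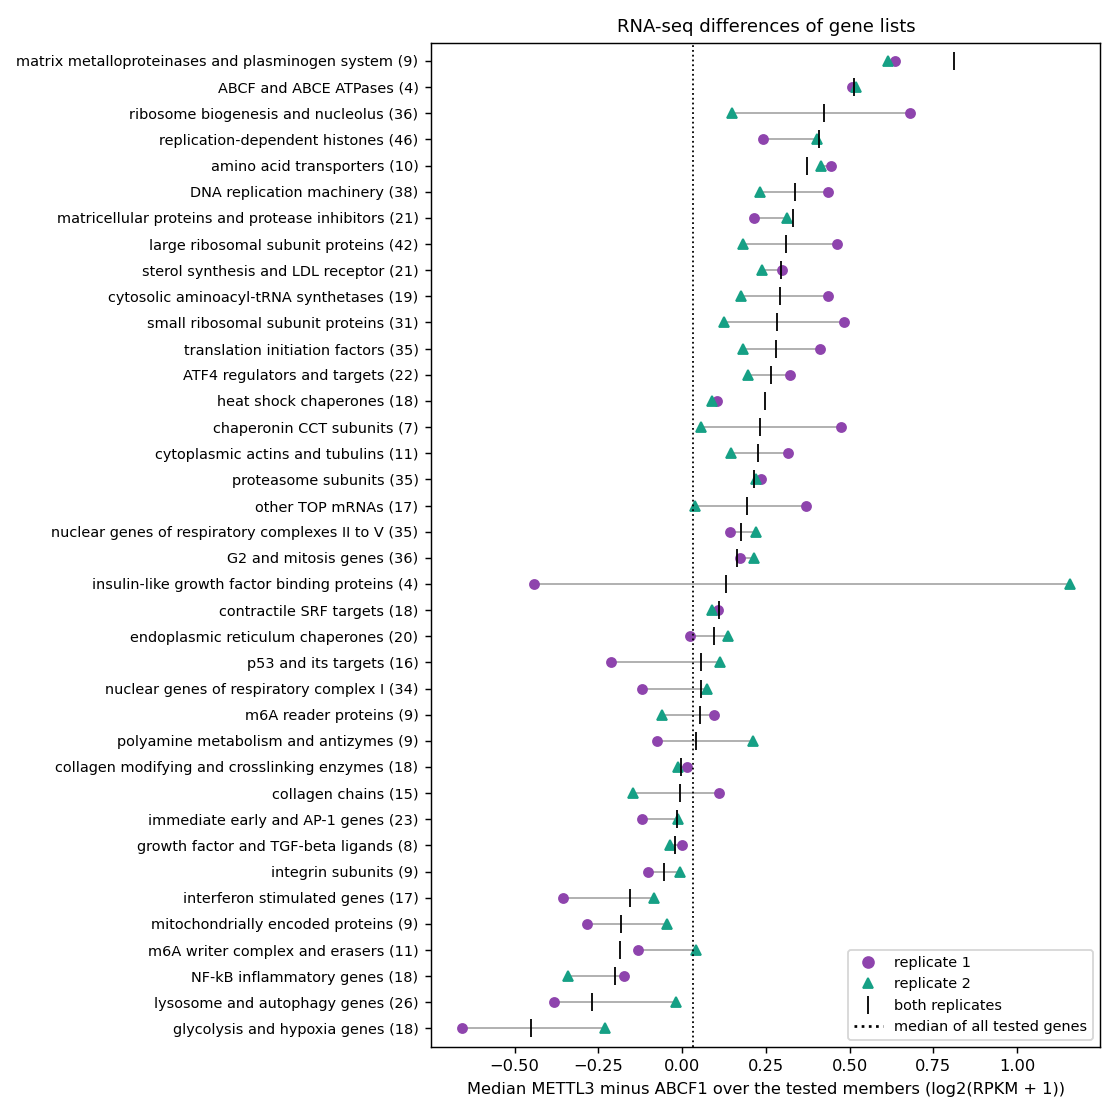
Median METTL3 minus ABCF1 difference in RNA-seq of each gene list with at least 4 tested members (number in brackets), in replicate 1 (circles), replicate 2 (triangles) and both (ticks), on the log2(RPKM + 1) scale; the dotted line is the median of all tested genes, 0.03. The metalloproteinase tick lies at 0.81, beyond both of its replicate medians, glycolysis and hypoxia genes lie lowest at -0.45, and the ribosome and ribosome biogenesis lists lie farther from the line in replicate 1 than in replicate 2.

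The other components of the m6A pathway had no common direction. Of 11 writers and erasers all were tested, with 2 higher and 4 lower in both replicates and a median of -0.19, and of 11 reader genes 9 were tested, with 3 higher and 3 lower and a median of 0.05. The 4 lower ones include Mettl3 itself.

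Fibroblast markers were found in all libraries, but several differed between the replicates. Of 13 fibroblast markers 11 were listed in at least 1 library, and Lum and Fap were at 0 in all 6. Col1a1 stood at 883.8 and 1273 in METTL3 knockdown, 642.9 and 1448 in ABCF1 knockdown and 908.2 and 1293 in Scram. The 13 markers summed to 1651 and 2562 in METTL3 knockdown, 1418 and 3138 in ABCF1 knockdown and 1956 and 2934 in Scram, higher in replicate 2 of every group. Vim had 45.6 and 393.2 in METTL3 knockdown, 54.3 and 516.6 in ABCF1 knockdown and 83.9 and 457.4 in Scram. The kept transcript of Pdgfrb was at 0 in replicate 2 of every group and at 6.38 to 17.1 in replicate 1. That of Pdgfra was at most 0.237 in replicate 1 and at least 9.58 in replicate 2. Other transcripts of these genes are not given here, so a low value need not be a low level of the gene. In replicate 1, macrophage markers summed to 4.89 in METTL3 knockdown, 5.66 in ABCF1 knockdown and 4.91 in Scram, mostly Cd68. Neural markers summed to 1.94, 2.82 and 4.00 in the same order, endothelial markers to 1.08, 1.77 and 1.13, skeletal muscle markers to 0.158, 1.44 and 0.740, and fat cell markers to 0, 2.41 and 0.497. In replicate 2, whose files list from 5 reads, all of these lists were at 0 in both knockdown libraries. At 0 in all 6 libraries were 4 of 8 macrophage, 5 of 7 neural, 3 of 7 endothelial, 4 of 7 skeletal muscle and 5 of 6 fat cell markers, among them Adgre1, Rbfox3, Cdh5, Myod1 and Adipoq.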

How the data were processed

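RNA-seq measured total RNA after removal of ribosomal RNA, cut to fragments of 40 to 60 nt, and Ribo-seq measured ribosome-protected fragments. The authors deposited RPKM values per transcript for each library. Cutadapt, Bowtie and GRCm38 are named in the submitters' processing notes, but no source used here gives their roles, their versions or the strand of counting. Of 22402 transcript identifiers in the 12 files used, 22305 matched GENCODE M21 and 97 did not, giving 14214 genes.

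For each gene 1 transcript was kept, the one listed in most RNA-seq libraries and then at the highest mean RPKM. RNA-seq files of replicate 1 list 1.35 to 1.36 transcripts per gene and those of replicate 2 list 1.00. A gene's reads may therefore lie on another transcript in 1 of the replicates, and levels given here are those of the kept transcript. Lars2 and Tmem38b were left out, and libraries were brought to a common median. Depth was recovered from the steps of RPKM times length, where 79.8% to 85.4% of values were whole reads within 0.02, and such reads served for description only. Replicate 1 files list transcripts from 1 read and those of replicate 2 from 5 reads, so a 0 in replicate 2 can hide up to 4 reads. Genes were tested where listed in at least 1 METTL3 or ABCF1 library in each replicate with a mean RPKM of at least 1. The test was limma 3.58.1 (R 4.3.3) with a mean trend on log2(RPKM + 1), over 6 libraries including Scram, with the replicate as a block, 2 residual degrees of freedom and Benjamini-Hochberg adjustment over all tested genes at 0.05.

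The block was used because same-numbered libraries deviated together from their group means, with correlations of 0.78 to 0.88 for the 3 RNA-seq pairs and 0.83 to 0.88 for the Ribo-seq pairs. Named genes were the 10 per direction with the largest smaller within-replicate difference, both knocked-down genes, and, in lists with a median beyond 0.2 in either direction, the 3 of lowest p, of which some are given here. The members and lists were chosen with earlier results of these data known. The code was tested on simulated data. Torin1 libraries were left out, having 1 library per assay. Alternatives were the replicate block, the pseudocount, scaling, filters, summing over transcripts and leaving out each library. With a METTL3 or ABCF1 library left out, the block was estimated from the remaining groups, so the value also depends on Scram. Results of some genes are not reported here.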

Additional observations from a re-analysis of the deposited data

How the results depend on the processing

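In RNA-seq the count of called genes was 0 under every alternative run except the one that left out ABCF1 replicate 1, which gave 171, so that leaving out each library in turn gave 0 to 171. In that fit Timp3, Tfcp2l1, Cav2, Osgin1, Glis3 and Tpp1 passed, with limma adjusted p of 0.0450, 0.0403, 0.0446, 0.0265, 0.0300 and 0.0300. Without the replicate block the RNA-seq count was 0, with 281 genes at an unadjusted p under 0.05. The Ribo-seq count of 5 became 0 without the replicate block, 2 with a pseudocount of 0.5, 15 with a pseudocount of 4, 2 without scaling, 12 with quantile normalization, 12 with a mean RPKM of at least 5, 18 with transcripts summed and 144 with 4 libraries and the replicate block, and 0 to 169 when a library was left out. It was 0 without ABCF1 replicate 1 or METTL3 replicate 2, 2 without ABCF1 replicate 2, 41 without METTL3 replicate 1, 144 without Scram replicate 1 and 169 without Scram replicate 2. The cause was not tested. Mettl3 and Abcf1 kept their direction throughout, and Actb turned to -0.11 under quantile normalization. The other 76 named genes kept their direction in each alternative that tested them. The signs of the medians of the 20 described lists held under each scaling, and the median of all genes was 0.11 without scaling. Depth limits single genes: among the 20 genes chosen by size of difference, a library value rests on as few as 3 reads.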

Other observations

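Lists whose median lay near that of all genes held members that stood apart, named here after their values were seen. Among collagen chains the fibrillar Col5a2 had 178.6 and 316.2 scaled RPKM in METTL3 knockdown, 85.7 and 175.6 in ABCF1 knockdown and 133.1 and 241.3 in Scram, and METTL3 knockdown was the highest group in each replicate. The basement membrane chains Col4a1 and Col4a2 lay on the same side, with log2 differences of 0.81 (SE 0.22) and 0.61 (SE 0.18). Col12a1, a chain that associates with fibrils, had 19.0 and 9.25 in METTL3 knockdown, 26.6 and 21.3 in ABCF1 knockdown and 26.4 and 14.8 in Scram. Igfbp3, which binds insulin-like growth factors, had 82.6 and 98.9 in METTL3 knockdown, 42.3 and 28.1 in ABCF1 knockdown and 61.3 and 59.0 in Scram, with Scram between the knockdowns in each replicate. None of these passed the RNA-seq test of limma.

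For interferon stimulated genes the RNA-seq median was -0.16 and the Ribo-seq median -0.14 (17 of 39 tested in RNA-seq, 3 higher and 9 lower in METTL3 than in ABCF1 knockdown in both replicates). Ddx58, which encodes the RNA sensor RIG-I, had 3.83 and 3.03 in METTL3 knockdown, 8.21 and 9.86 in ABCF1 knockdown and 4.83 and 6.21 in Scram, with Scram between the knockdowns. B2m, the light chain of MHC class I, had 134.1 and 76.1 in METTL3 knockdown, 203.1 and 109.1 in ABCF1 knockdown and 143.0 and 118.0 in Scram. Isg15 was listed at 0 in ABCF1 replicate 2 and had differences of -0.10 and 2.90 in replicates 1 and 2. NF-kB inflammatory genes had a median of -0.20 (18 of 24 tested, 1 higher and 6 lower in both replicates), with -0.22 in Ribo-seq. Its RNA-seq median was 0.17 without METTL3 replicate 2, 0.04 without ABCF1 replicate 1, -0.36 without METTL3 replicate 1 and -0.55 without ABCF1 replicate 2. That of the interferon stimulated genes was -0.35 and -0.08 in replicates 1 and 2. It was -0.29 without METTL3 replicate 2 and -0.24 without ABCF1 replicate 2, and values without a replicate 1 library are not given here. Whether either list differs from other genes was not tested.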
